A study of Mus musculus with 38 samples.

Results

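The 35 genes described here cover cholesterol synthesis, its control, and the storage, release and efflux of cholesterol. They were taken by name, for their place in the pathway, out of 43346 gene identifiers, and all 35 matched 1 identifier and passed the filter on low counts that left 14095 genes. By role, 7 enzymes belong to the mevalonate arm and 11 to the squalene and sterol arm of synthesis, 5 proteins control SREBP, 3 genes are the liver X receptors (LXR) and Mylip, 4 encode efflux transporters and apolipoproteins, and 5 act in lysosomal release, esterification or oxysterol synthesis. RNA was sequenced from macrophages sorted from lungs of unmanipulated C57BL/6 mice aged 8 to 10 weeks, with 3 libraries (replicates A, B and C) for each of 4 populations. Alveolar macrophages (AM) were CD11c-positive and Siglec F-positive and lacked CD11b. Interstitial macrophages were enriched for MerTK, sorted on CD64 and CD11b, and split on the cell surface by CD206, the mannose receptor, and by MHC class II. IM1 was high for CD206 and low for MHC class II, IM2 was high for both, and IM3 was low for CD206 and high for MHC class II. All mice had the same strain, and no group carried a transgene or received a treatment according to the labels. Nothing in the labels tells whether the replicates were different mice, so p-values measure only the spread between these libraries, which may be technical.

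Cells make cholesterol from acetyl-CoA through mevalonate and squalene. When the membrane of the endoplasmic reticulum is low in sterol, Scap carries the SREBP factors to the Golgi, where they are cut free to switch on the enzyme genes, and the Insig proteins hold Scap back when sterol is plentiful. When sterol is plentiful, oxysterols activate the LXR receptors, which switch on genes for cholesterol export such as Abca1, Abcg1 and Apoe. Lung macrophages handle cholesterol from dying cells, and alveolar macrophages also clear surfactant, which holds cholesterol.

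The sequences before the transcription start are shown because the synthesis enzymes moved together, and because the sterol response element, which SREBP reads, usually lies close to boxes for NF-Y and for Sp1. RefSeq windows on build GRCm38.p6, each 300 bases long from 250 bases before to 50 after a start, held 29 of the 35 genes. Those without a window were Fdps, Fdft1, Sqle, Abcg1, Apoc1 and Npc1. The 250 bases before the start are printed for Hmgcs1 (chr13:119690101-119690350, plus strand), Mvd (chr8:122443423-122443672, minus strand), Msmo1 (chr8:64733579-64733828, minus strand) and Apoe (chr7:19699189-19699438, minus strand), 5′ to 3′ along each gene. Capitals mark the response element core TCACNCCAC and the NF-Y box CCAAT on either strand (ATTGG on the opposite one). Hmgcs1 is the synthesis gene whose window holds the core, and Apoe is the efflux gene with the largest difference; Mvd and Msmo1 were added after their values were seen, as enzyme genes with NF-Y boxes and no core match.
Hmgcs1: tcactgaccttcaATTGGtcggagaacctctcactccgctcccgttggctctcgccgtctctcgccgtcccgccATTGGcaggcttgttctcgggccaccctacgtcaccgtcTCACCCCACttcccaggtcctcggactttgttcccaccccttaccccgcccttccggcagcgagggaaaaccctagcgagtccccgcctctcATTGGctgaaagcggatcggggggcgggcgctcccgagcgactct
Mvd: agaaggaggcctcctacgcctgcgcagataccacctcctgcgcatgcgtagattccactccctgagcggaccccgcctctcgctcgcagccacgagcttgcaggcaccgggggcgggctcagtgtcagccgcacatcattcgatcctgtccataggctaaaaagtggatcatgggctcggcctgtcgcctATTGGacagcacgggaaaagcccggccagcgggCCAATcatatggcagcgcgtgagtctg
Msmo1: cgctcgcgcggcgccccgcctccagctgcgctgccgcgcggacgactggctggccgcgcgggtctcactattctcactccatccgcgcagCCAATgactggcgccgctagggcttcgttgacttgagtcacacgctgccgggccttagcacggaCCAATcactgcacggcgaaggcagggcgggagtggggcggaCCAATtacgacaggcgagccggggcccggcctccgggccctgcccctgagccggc
Apoe: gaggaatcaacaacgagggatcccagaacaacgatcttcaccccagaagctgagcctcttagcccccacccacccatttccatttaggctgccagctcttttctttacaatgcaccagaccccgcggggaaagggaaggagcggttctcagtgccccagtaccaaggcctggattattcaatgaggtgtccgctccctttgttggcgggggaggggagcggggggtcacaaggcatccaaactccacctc
The Hmgcs1 stretch holds 1 core, starting 137 bases before the start, and 3 NF-Y boxes. Mvd holds 2 NF-Y boxes and Msmo1 holds 3, while the Apoe stretch has 0 matches to either motif.

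Across the windows of 300 bases, the core was found in 1 of the 15 synthesis genes with a window (6.7%) and in 1.3% of the 10228 tested genes with one. The NF-Y box was found in 14 of the 15 synthesis genes (93.3%), in 8 of the 14 other listed genes (57.1%) and in 42.7% of tested genes. Acat2 was the synthesis gene without one. The GC box GGGCGG, which Sp1 binds, was found in 14 of 15 synthesis genes (93.3%), 10 of 14 other listed genes (71.4%) and 67.3% of tested genes. The E-box CACGTG was found in 3 of 15 (20%), 3 of 14 (21.4%) and 11.7%. Both strands were searched, and in the windows of the listed genes 0 matches overlapped a match of another of the 4 motifs. These counts describe letters in a window, with no test, and a missing match says only that these letters are not there.

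**Figure D1:**
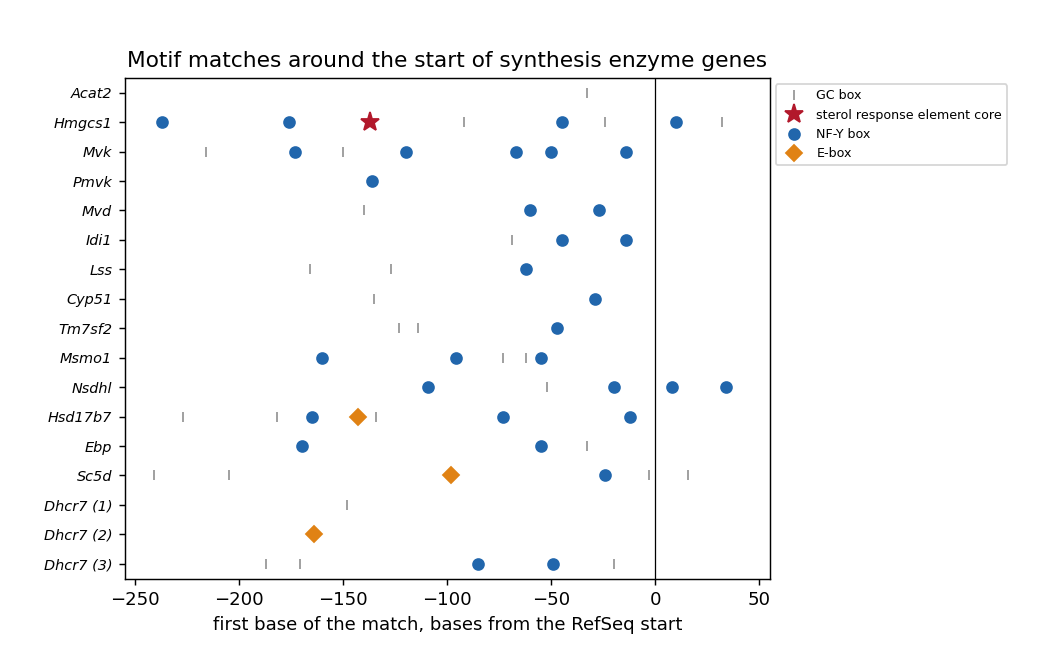
Motif matches by position for the 15 synthesis genes with a RefSeq window (vertical axis, with a line for each window where a gene has several) against the distance in bases from the start (horizontal axis); symbols mark the first base of a match on either strand. NF-Y boxes appear for every gene but Acat2, and the single response element core lies 137 bases before the Hmgcs1 start.

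The 12 libraries held 11818981 to 15758326 assigned reads, so a count of 0 allowed up to 3 reads, or 0.190 to 0.254 CPM (counts scaled to library size). Marker genes followed the labels: the 9 alveolar macrophage markers summed to 52578 to 59297 CPM in AM and 178.4 to 589.9 in interstitial libraries, and C1qa, an interstitial marker, was at most 0.07006 CPM in AM against at least 1936. IM1 replicate A differed most from its group, with a chi-square per degree of freedom of 86.17 and 67.36 against them, where B against C gave 20.53. Trac, a T cell receptor gene, was at 4201 CPM in IM1 replicate A, 1078 in IM2 replicate B and 649.9 in IM3 replicate B and at most 0.8622 in the other libraries, while Cd3e was at most 0.07365 in every library. Summed endothelial markers were 32.68 to 67.52 CPM in interstitial libraries and at most 0.1473 in AM, where 4 of the 6 were at 0 in every library. Summed fibroblast and smooth muscle markers were 42.99 to 115.8 CPM against 3.93 to 6.555, also with 4 of 6 at 0 in AM. Summed monocyte markers were 154.7 to 203 CPM in AM. They were 52.78 to 109.5 CPM in IM1, 341.9 to 596.3 for IM2, and were highest at 1071 to 1285 for IM3. Most of the interstitial sums was Ccr2 (mean 70.98 CPM in IM1, 489.2 in IM2 and 1155 in IM3). Treml4 and Ace were highest in AM instead (117.8 and 46.81). Summed dendritic cell markers were 3.573 to 5.744 CPM in AM, between 91.33 and 123.8 in IM1 and IM2, and 27.2 to 48.12 in IM3. The list did not share an order. The sums in IM1 and IM2 were mostly Cd209a (mean 63.9 and 67.98 CPM) and Zbtb46 (41.24 and 40.88). Flt3 rose from 2.771 CPM in IM1 to 6.224 in IM2 and 17.74 in IM3. Clec9a was highest in IM3 and AM (2.34 and 2.268), and Xcr1 and Ccr7 were below 1 CPM on average in every population. In the other direction, summed erythroid markers were 345.9 to 426.9 CPM in AM and 0.8796 to 73.25 in interstitial libraries, and B cell markers 144.2 to 179 against 11.44 to 19.83. The B cell sums were almost all Cd22 (mean 165.6 CPM in AM and 13.95 in interstitial libraries). The part of these markers in the results below was not tested.

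The question of how sterol handling genes differ between the macrophages of the airspace and those of the tissue was addressed by setting AM against the interstitial mean, which weights IM1, IM2 and IM3 equally. Interstitial macrophages had less RNA for nearly the whole synthesis pathway, and the export genes did not move together: Apoe and Abca1 were higher and Abcg1 was lower. Of the 35 genes, 27 were lower and 4 higher in interstitial macrophages, against 28.7% of all tested genes lower and 35.9% higher (64.6% in either direction), by edgeR's quasi-likelihood test at a Benjamini-Hochberg adjusted p under 0.05. The median log2 difference was -1.36 over the 35 genes and 0.10 over all tested genes. In the sorted bulk samples, fewer cells that express a gene and less RNA per cell cannot be told apart.

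Of the 18 synthesis enzymes, 17 were lower in interstitial macrophages. Their median log2 difference, over all 18, was -1.62. The same 17 were lower in IM1, IM2 and IM3 taken separately, where the share of all genes called was 58.8% (25.7% lower and 33.1% higher), 60.5% (26.2% and 34.3%) and 57.4% (25% and 32.4%). For each of these 17 enzymes every interstitial library lay below every AM library, which held for 22.2% of all tested genes. Summed over the 18 enzymes, the level was 1855 ± 170.8 CPM (SD, n = 3) in AM, 528.9 ± 42.08 in IM1, 523.3 ± 43.67 in IM2 and 707.1 ± 91.76 in IM3.

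All 7 enzymes of the mevalonate arm were lower, by -1.24 (Mvk) to -2.98 (Mvd) on the log2 scale. Mvd (ENSMUSG00000006517, mm10 chromosome 8, 122433596 to 122443422), which makes isopentenyl diphosphate, was at 123.8, 139.9 and 136.5 CPM in AM replicates A, B and C. It was at 20.1, 14.86 and 20.95 CPM in IM1, 17.99, 11.92 and 15.89 in IM2 and 19.13, 15.11 and 16.85 in IM3. All 9 interstitial libraries were far below AM and the interstitial populations overlapped each other, with a log2 difference from AM of -2.98 ± 0.12 (SE, adjusted p = 6.07e-12, edgeR). Hmgcs1 (ENSMUSG00000093930, chromosome 13, 119690462 to 119708086), which makes HMG-CoA, the precursor of mevalonate, was at 266.4, 338 and 265.3 CPM in AM. It was at 31.2, 43.77 and 42.95 CPM in IM1, 35.31, 46.36 and 52.91 in IM2 and 50.17, 62.56 and 84.24 in IM3. The highest interstitial library was still below the lowest AM library by a wide margin, and the log2 difference was -2.57 ± 0.15 (adjusted p = 3.16e-10, edgeR). Fdps, which makes farnesyl diphosphate, was lower by -2.29 ± 0.16, and Idi1, which isomerises isopentenyl diphosphate, by -1.69 ± 0.18. Acat2, Pmvk and Mvk, which act at the entry to the pathway and on mevalonate, had smaller differences of -1.41, -1.27 and -1.24.

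In the squalene and sterol arm 10 of 11 enzymes were lower. Fdft1 (ENSMUSG00000021273, chromosome 14, 63145153 to 63177793), which joins farnesyl units into squalene, was at 83.72, 123 and 102.7 CPM in AM. It was at 20.27, 17.78 and 20.37 CPM in IM1, 16.49, 19.57 and 23.27 in IM2 and 27.2, 27.06 and 38.36 in IM3, all below AM. The log2 difference was -2.18 ± 0.13 (adjusted p = 7.97e-10, edgeR), and 26.8% of the exon bases of Fdft1 are shared with Ctsb on the opposite strand, which the unstranded counting cannot separate. Sqle (ENSMUSG00000022351, chromosome 15, 59315077 to 59331192), the squalene epoxidase and a control point of the pathway, was at 124.2, 159.8 and 139.4 CPM in AM. It was at 18.44, 22.62 and 29.91 CPM in IM1, 23.94, 32.97 and 33.93 in IM2 and 44.28, 50.16 and 66.99 in IM3. No interstitial library reached AM, every IM3 library was above every IM1 and IM2 library, and the log2 difference from AM was -2.06 ± 0.15 (adjusted p = 4.64e-09, edgeR). Hsd17b7 (-2.02), Cyp51 (-1.84), Msmo1 (-1.68), Lss (-1.57), Dhcr7 (-1.52), Nsdhl (-1.36), Tm7sf2 (-0.90) and Sc5d (-0.80), which close the rings and trim and reduce the sterol, were lower by less, and Sc5d lost its call in IM3 without AM replicate B or IM3 replicate A. Tm7sf2 shares 15.3% of its exon bases with Vps51 on the same strand.

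Ebp, the sterol isomerase of the late pathway, was the enzyme that did not pass the test. It was at 159.4, 143.8 and 132.9 CPM in AM, 175.8, 97.17 and 108.1 in IM1, 123.8, 96.79 and 99.77 in IM2 and 128, 112.6 and 105.3 in IM3. IM1 replicate A was the highest of the 12 libraries and the other 8 interstitial libraries were below all 3 of AM. The log2 difference was -0.33 ± 0.15 (adjusted p = 0.0703, edgeR), and without IM1 replicate A it was -0.43 (adjusted p = 0.000814).

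**Figure D2:**
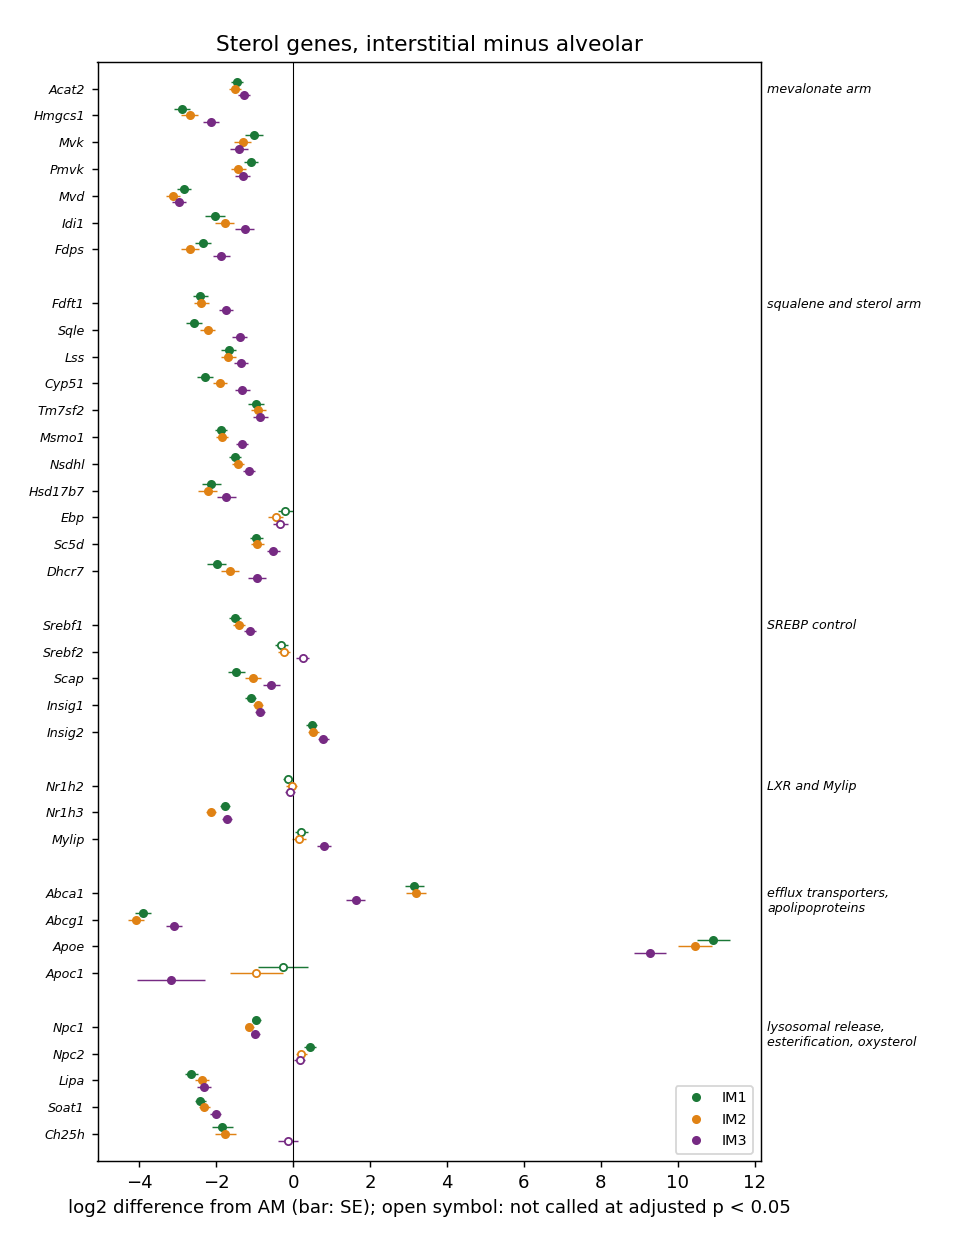
Log2 difference of IM1, IM2 and IM3 from AM (horizontal axis, with the SE as a bar) for the 35 genes ordered by role (vertical axis); filled symbols passed an adjusted p under 0.05 and open ones did not. All 18 synthesis enzymes lie left of 0 in each population, Ebp with open symbols, and Apoe, Abca1 and Insig2 lie right of it.

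Among the genes that control SREBP, 3 of 5 were lower and 1 was higher. Srebf1 (ENSMUSG00000020538, chromosome 11, 60199089 to 60222581), whose products drive fatty acid and cholesterol synthesis genes, was at 179.1, 180.5 and 186.4 CPM in AM. It was at 45.7, 77.47 and 67.86 CPM in IM1, 59.85, 73.23 and 74.48 in IM2 and 88.03, 79.35 and 83.02 in IM3. AM was higher than every interstitial library, and the log2 difference was -1.34 ± 0.12 (adjusted p = 1.04e-07, edgeR). Srebf2 (ENSMUSG00000022463, chromosome 15, 82147266 to 82205376), the main activator of cholesterol synthesis genes, was at 130, 133.1 and 134.4 CPM in AM. It was at 135.4, 101.5 and 85.57 CPM in IM1, 117.8, 114.6 and 106.1 in IM2 and 156, 130.8 and 187.4 in IM3. The AM level lay inside the interstitial range and the difference of -0.09 ± 0.13 did not pass the test (adjusted p = 0.552, edgeR). IM1 replicate A was the highest IM1 library for Srebf2, and without it the difference of IM1 from AM was -0.50 (adjusted p = 0.00445, edgeR) in place of -0.30 (adjusted p = 0.121).

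Scap, the SREBP escort, was at 83.72, 79.16 and 85.5 CPM in AM. It was at 18.18, 43.24 and 26.99 CPM in IM1, 42.16, 41.31 and 36.7 in IM2 and 53.15, 57.28 and 57.78 in IM3. All interstitial libraries were below AM and IM3 was the closest, with a log2 difference of -1.03 ± 0.16 for the interstitial mean and -0.56 ± 0.21 for IM3 (adjusted p = 4.8e-05 and 0.0328, edgeR). The call in IM3 was lost without any 1 of the AM or IM3 libraries, with adjusted p of 0.0556 to 0.0968, and 18.4% of the exon bases of Scap are shared with 5830462I19Rik on the opposite strand. The 2 Insig genes, which encode the anchors that hold Scap back, differed in opposite directions. Insig1, itself an SREBP target, was at 53.25 to 60 CPM in AM and 25.43 to 35.25 in interstitial libraries (-0.96 ± 0.10, adjusted p = 7.58e-07, edgeR). Insig2 was at 48.46 to 54.11 CPM in AM and 66.85 to 105.7 in interstitial libraries (0.60 ± 0.12, adjusted p = 0.000288, edgeR), and was higher in each of IM1, IM2 and IM3.

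Of the receptors for oxysterols, Nr1h3 was lower and Nr1h2 did not pass the test. Nr1h3 (ENSMUSG00000002108, chromosome 2, 91184061 to 91202834), which encodes LXR alpha, was at 55.07, 59.51 and 59.95 CPM in AM. It was at 16.95, 17.51 and 16.35 CPM in IM1, 12.27, 12.91 and 14.95 in IM2 and 17.87, 17.23 and 17.8 in IM3. The interstitial libraries lay close together and far below AM, with a log2 difference of -1.87 ± 0.10 (adjusted p = 9.16e-11, edgeR). Nr1h2 (ENSMUSG00000060601, chromosome 7, 44549616 to 44553951), which encodes LXR beta, was at 98.22, 85.96 and 83.96 CPM in AM, 69.91, 84.76 and 89.46 in IM1, 94.33, 73.23 and 94.47 in IM2 and 92.53, 82.06 and 78.76 in IM3. The 4 populations overlapped, and the difference was -0.08 ± 0.11 (adjusted p = 0.542, edgeR). Per kilobase of exon, the mean level of Nr1h3 was 23.13 CPM and of Nr1h2 26.55 in AM, and 5.318 to 7.011 and 24.18 to 25.95 in the interstitial populations.

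Mylip, an LXR target that marks lipoprotein receptors for breakdown, was at 42.46, 40.21 and 42.57 CPM in AM. It was at 35.65, 53.46 and 56.31 CPM in IM1, 36.51, 51.06 and 51.59 in IM2 and 61.49, 79.06 and 79.77 in IM3. The IM3 libraries were all above AM, while replicate A of IM1 and of IM2 lay below it. The difference was 0.40 ± 0.15 for the interstitial mean (adjusted p = 0.0316, edgeR) and 0.81 ± 0.18 for IM3 (adjusted p = 0.00121). The call for the interstitial mean was lost when AM replicate A, B or C, IM1 replicate C, IM2 replicate B or C, or IM3 replicate B or C was left out, with adjusted p of 0.0523 to 0.113.

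The 2 export transporters stood in opposite order in the populations. Abca1 (ENSMUSG00000015243, chromosome 4, 53030787 to 53159895), which loads cholesterol onto lipid-poor apolipoproteins, was at 83.02, 58.03 and 64 CPM in AM. It was at 405.1, 853.1 and 568 CPM in IM1, 514, 787.1 and 586.1 in IM2 and 242, 193.1 and 199 in IM3. The order was AM below IM3 below IM1 and IM2, which overlapped, and the log2 difference of the interstitial mean from AM was 2.66 ± 0.22 (adjusted p = 3.66e-08, edgeR). Abcg1 (ENSMUSG00000024030, chromosome 17, 31057698 to 31115777), which passes cholesterol to mature high-density lipoprotein, was at 997.8, 766 and 826.9 CPM in AM. It was at 73.4, 60.69 and 38.6 CPM in IM1, 48.1, 58.15 and 46.23 in IM2 and 105, 103.7 and 95.88 in IM3. Here AM was highest, then IM3, then IM1 and IM2, and the difference from AM was -3.69 ± 0.14 (adjusted p = 1.88e-12, edgeR). Per kilobase of exon the mean level of Abcg1 in AM was 212.4 CPM against 6.596 for Abca1. The order of the transporters was the reverse in IM1 (14.16 for Abcg1 and 58.74 for Abca1) and IM2 (12.5 and 60.7), and in IM3 they were at 24.97 and 20.4.

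Apoe (ENSMUSG00000002985, chromosome 7, 19696109 to 19699166), which accepts the cholesterol that macrophages release, was at 11.07, 6.035 and 5.082 CPM in AM, from 158, 86 and 69 reads. It was at 21443, 10084 and 11800 CPM in IM1, 13082, 7938 and 10074 in IM2 and 5719, 4078 and 4066 in IM3. Every interstitial library was above every AM library, as for 26.5% of all tested genes, and replicate A had the highest level within each of the 4 populations. The log2 difference was 10.22 ± 0.42 (adjusted p = 6.46e-12, edgeR). Apoc1, a small apolipoprotein whose gene lies 3450 bases from Apoe on the same strand, did not follow it. Apoc1 had 13, 5 and 11 reads in AM, 13, 4 and 6 in IM1, 9, 2 and 4 in IM2 and 1 in each IM3 library, and its levels of 0.06619 to 1.136 CPM lie around the limit that a count of 0 allows. The ratio of IM3 to AM was 0.1001 (95% interval 0.01951 to 0.3228, exact binomial, counting error only), from 3 and 29 reads, and the edgeR call in IM3 had an adjusted p of 0.00619. For the interstitial mean the call of Apoc1 (adjusted p = 0.0346, edgeR) was lost with DESeq2 (0.0551) and without AM replicate A or C, IM1 or IM2 replicate B or C, or any single IM3 library (0.0521 to 0.153).

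In lysosomal release, esterification and oxysterol synthesis 4 of 5 genes were lower. Lipa (ENSMUSG00000024781, chromosome 19, 34492318 to 34527474), the lysosomal acid lipase that frees cholesterol from esters, was at 1276, 1490 and 1347 CPM in AM. It was at 157.1, 251.3 and 251.3 CPM in IM1, 241, 241.1 and 317.7 in IM2 and 243.1, 297.7 and 284.3 in IM3. The groups were well apart, with a log2 difference of -2.44 ± 0.13 (adjusted p = 1.18e-10, edgeR). Soat1, which turns cholesterol back into esters for storage, was at 464.6, 543.6 and 500.3 CPM in AM, 76.2, 97.17 and 109.3 in IM1, 90.56, 111.1 and 102.6 in IM2 and 118.7, 133 and 123.5 in IM3. AM was again well above the rest (-2.24 ± 0.10, adjusted p = 2.01e-11, edgeR). Npc1 and Npc2 act together to move freed cholesterol out of the lysosome. Npc1 was lower (-1.02 ± 0.09, adjusted p = 7.47e-08, edgeR), while Npc2 was at 251.6 to 289.3 CPM in AM and 278.6 to 453.5 in interstitial libraries (0.28 ± 0.12, adjusted p = 0.0627). Npc2 passed the test in IM1 (0.44 ± 0.15, adjusted p = 0.0194, edgeR), where replicate A was the highest at 453.5 CPM, and not without that library (0.24, adjusted p = 0.0826) or without AM replicate A or C. For the interstitial mean Npc2 passed with upper quartile scaling (0.0401), DESeq2 (0.0446) and voom (0.00966), and without IM1 replicate A (0.045) or B (0.0155).

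Ch25h (ENSMUSG00000050370, chromosome 19, 34473786 to 34475135), which makes 25-hydroxycholesterol, was at 92.9, 92.98 and 102.4 CPM in AM. It was at 42.82, 19.9 and 18.42 CPM in IM1, 32.67, 29.46 and 23.02 in IM2 and 111.1, 87.27 and 66.31 in IM3. IM1 and IM2 were below AM in all 6 libraries while IM3 overlapped AM. The log2 difference from AM was -1.84 ± 0.27 in IM1 and -1.76 ± 0.27 in IM2 (adjusted p = 2.81e-05 and 3.97e-05, edgeR) and -0.12 ± 0.26 in IM3 (adjusted p = 0.708). Ch25h lies 17182 bases from Lipa, which was low in all 3 interstitial populations, and shares 11.8% of its exon bases with Gm26902 on the opposite strand.

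**Figure D3:**
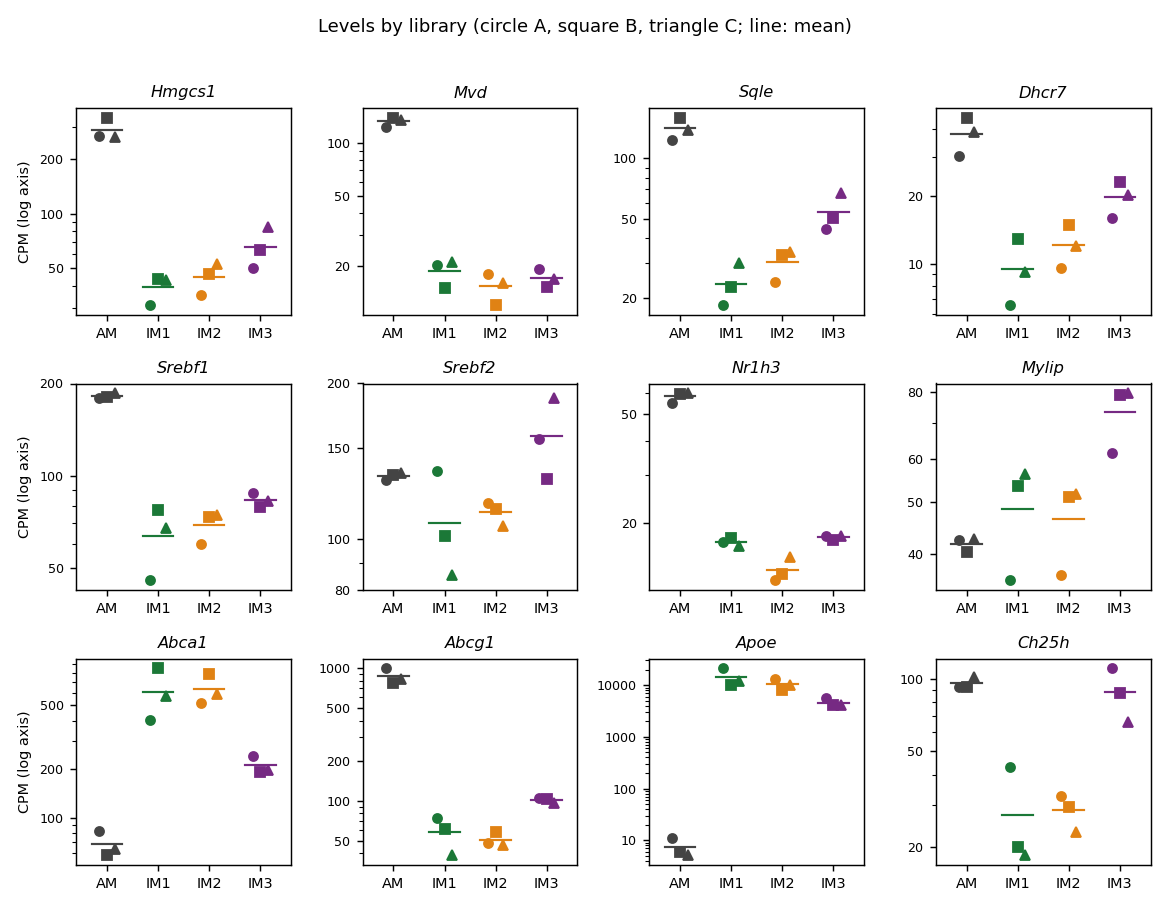
Level in CPM (log axis, with its own range in each panel) of 12 of the genes in the 12 libraries, by population; circles, squares and triangles are replicates A, B and C and the line is the mean of 3. IM3 lies between AM and the other interstitial populations for Hmgcs1, Sqle, Dhcr7, Abca1, Abcg1 and Apoe, and at the AM level for Ch25h.

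The interstitial populations, which the sort divided by MHC class II and CD206, were then compared in pairs. Between IM1 and IM2, which differ in MHC class II, 0 of the 35 genes passed the edgeR test, where 1.71% of all tested genes did (0.490% higher and 1.22% lower in IM1). At an unadjusted p under 0.05 there was 1 such gene (Nr1h3) by edgeR, 1 by DESeq2 and 4 by voom (Mvk, Mvd, Scap and Ch25h). Between IM1 and IM3, 13 genes were lower and 3 higher in IM1, against 11.7% and 12.7% of all tested genes (24.4% in either direction). Between IM2 and IM3, 7 genes were lower and 2 higher in IM2, against 4.94% and 6.49% (11.4%).

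The synthesis enzymes that passed the edgeR test were all higher in IM3: 7 of 18 in the comparison with IM1 and 4 of 18 in that with IM2. With voom, Mvk was instead called lower in IM3 than in IM1 (0.62 for IM1 minus IM3, adjusted p = 0.0366). For Cyp51, IM2 minus IM3 was -0.58 (adjusted p = 0.0628, edgeR) and passed with DESeq2 (0.0405) and voom (0.0234). Mean levels were higher in IM3 than in IM1 for 14 of the 18 enzymes and higher than in IM2 for 17. Sqle showed the largest such difference, with -1.18 ± 0.20 for IM1 minus IM3 (adjusted p = 0.000458, edgeR) and -0.83 ± 0.20 for IM2 minus IM3 (adjusted p = 0.0111). Dhcr7, which makes cholesterol in the final step of a branch of the pathway, was at 6.554, 12.87 and 9.212 CPM in IM1, 9.561, 14.94 and 12.05 in IM2 and 16.08, 23.25 and 20.3 in IM3, against 30.34, 44.91 and 38.81 in AM. IM3 was above both others in all its libraries, and the difference was -1.05 ± 0.24 for IM1 minus IM3 (adjusted p = 0.00539, edgeR) and -0.70 ± 0.24 for IM2 minus IM3 (adjusted p = 0.0766). The latter passed with DESeq2 (0.0465), voom (0.0444), no filter on low counts (0.00905) and only the populations compared (0.0192), and without IM1 replicate A (0.0208) or B (0.0373). Idi1 was at 5.855, 5.969 and 9.212 CPM in IM1, 7.528, 7.435 and 10.22 in IM2 and 9.399, 10.19 and 16.58 in IM3, against 25.78, 33.26 and 27.54 in AM. Every IM1 library was below every IM3 library (-0.78 ± 0.25, adjusted p = 0.034, edgeR). Fdps was at 38.1, 24.54 and 35.23 CPM in IM1, 21.45, 24.13 and 31.41 in IM2 and 31.44, 54.34 and 49.87 in IM3, against 140.7, 192.4 and 160.1 in AM. The IM2 libraries were below those of IM3, by little at the closest pair (-0.81 ± 0.22, adjusted p = 0.0225, edgeR). Hmgcs1, Fdft1, Cyp51 and Msmo1 were lower in IM1 than in IM3 as well, by -0.55 to -0.98, whereas Mvd, the enzyme with the largest distance from AM, had a difference of 0.13 ± 0.17 that did not pass the test.

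Several of these calls changed when single libraries were left out, in some cases with little change in the difference itself. IM3 replicate C had the highest summed synthesis level of the interstitial libraries (800.5 CPM, against 617.1 and 703.8 in IM3 replicates A and B), and without it 8 genes passed the test between IM1 and IM3 in place of 16. Between IM2 and IM3 the count was 3 in place of 9 without IM3 replicate C, 3 without IM2 replicate A and 15 without IM1 replicate A, which belongs to neither group compared. Calls over all tested genes moved in the same directions. Between IM1 and IM3 they were 2441 without IM3 replicate C in place of 3445. Between IM2 and IM3 they were 1204, 1143 and 2247 in the same 3 settings in place of 1611. The changes are thus not particular to these genes. Hmgcs1 and Fdft1 lost their calls between IM1 and IM3 without IM3 replicate C, Msmo1 without IM3 replicate B or C, and Idi1 without IM1 replicate A or B or IM3 replicate C. Some of these calls also depended on the method. With only the populations compared, Idi1 (adjusted p = 0.0922, edgeR) and Msmo1 (0.0538) lost theirs, as did Idi1 with voom (0.124). Between IM2 and IM3 the calls of Fdps, Fdft1, Sqle and Msmo1 were each lost without IM2 replicate A or without IM3 replicate C, and those of some of them without other libraries. The Msmo1 call there was also lost with RLE scaling (adjusted p = 0.0512, edgeR). Without IM3 replicate C the Fdps difference was -0.73 in place of -0.81, while that of Fdft1 was -0.45 in place of -0.64. Sqle kept its call between IM1 and IM3 whichever single library was left out.

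Regulators followed in part. Srebf2 was lower in IM1 than in IM3 (-0.56 ± 0.16, adjusted p = 0.0203, edgeR), as was Scap (-0.92 ± 0.22, adjusted p = 0.00548), and in the comparison of IM2 with IM3 neither passed the test (-0.49 for each). That comparison passed for Srebf2 with no filter (0.028), DESeq2 (0.0411), voom (0.0146) and only the populations compared (0.0186), and without IM1 replicate A (0.00907), IM1 replicate C (0.0481) or IM3 replicate B (0.0418). It passed for Scap with no filter (0.0497), voom (0.0167) and only the populations compared (0.0125), and without IM1 replicate A (0.0215) or B (0.0276). The Srebf2 call between IM1 and IM3 was lost without IM1 replicate C or without IM3 replicate A or C, with adjusted p of 0.0501 to 0.118. It was also lost with only the populations compared (adjusted p = 0.0863, edgeR). Srebf1, Insig1, Insig2, Nr1h2 and Nr1h3 passed in no interstitial pair in the reported fit. Between IM2 and IM3, Nr1h3 passed with DESeq2 (0.0342) and without IM1 replicate A (0.0468, edgeR). Between IM1 and IM3, Srebf1 passed without IM1 replicate B (0.0153, edgeR). Mylip was lower in IM1 (-0.60 ± 0.18, adjusted p = 0.0253, edgeR) and in IM2 (-0.66 ± 0.18, adjusted p = 0.0246) than in IM3, and lost these calls without IM3 replicate B or C and without IM1 replicate A or IM2 replicate A, respectively. Its call between IM1 and IM3 was also lost with only the populations compared (adjusted p = 0.0703, edgeR).

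For export the interstitial populations split the other way for Abca1 and Apoe. Abca1 was higher in IM1 (1.53 ± 0.24, adjusted p = 0.000184, edgeR) and in IM2 (1.57 ± 0.24, adjusted p = 0.000256) than in IM3, with no overlap of libraries. Apoe was higher in IM1 by 1.64 ± 0.30 (adjusted p = 0.000743, edgeR) and in IM2 by 1.17 ± 0.29 (adjusted p = 0.0147), and the call in IM2 was lost without IM2 replicate A, IM3 replicate B or IM3 replicate C (adjusted p = 0.0673 to 0.0781). Apoc1 was higher in IM1 than in IM3, from 23 and 3 reads, a ratio of 7.957 (95% interval 2.404 to 41.4, exact binomial), and the edgeR call (adjusted p = 0.0297) was lost without IM1 replicate A or any single IM3 library (0.0793 to 0.155). Abcg1 went with the synthesis enzymes and was lower in IM1 (-0.82 ± 0.19, adjusted p = 0.00489, edgeR) and in IM2 (1.998-fold lower, adjusted p = 0.00197) than in IM3. Ch25h had the largest difference in that direction, -1.71 ± 0.27 for IM1 minus IM3 (adjusted p = 0.000231, edgeR) and -1.64 ± 0.27 for IM2 minus IM3 (adjusted p = 0.000592). Soat1 was lower in IM1 by -0.41 ± 0.14 (adjusted p = 0.0427, edgeR). That call was lost without any of 9 single libraries (adjusted p = 0.0523 to 0.137). It was also lost with upper quartile scaling (0.0561), no filter (0.0628), voom (0.0855) and only the populations compared (0.123). Lipa, Npc1 and Npc2 passed in no pair in the reported fit. Npc2 passed between IM1 and IM3 without IM1 replicate B (0.41, adjusted p = 0.0383, edgeR). The comparisons with IM3 share its libraries, so they are not independent.

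**Figure D4:**
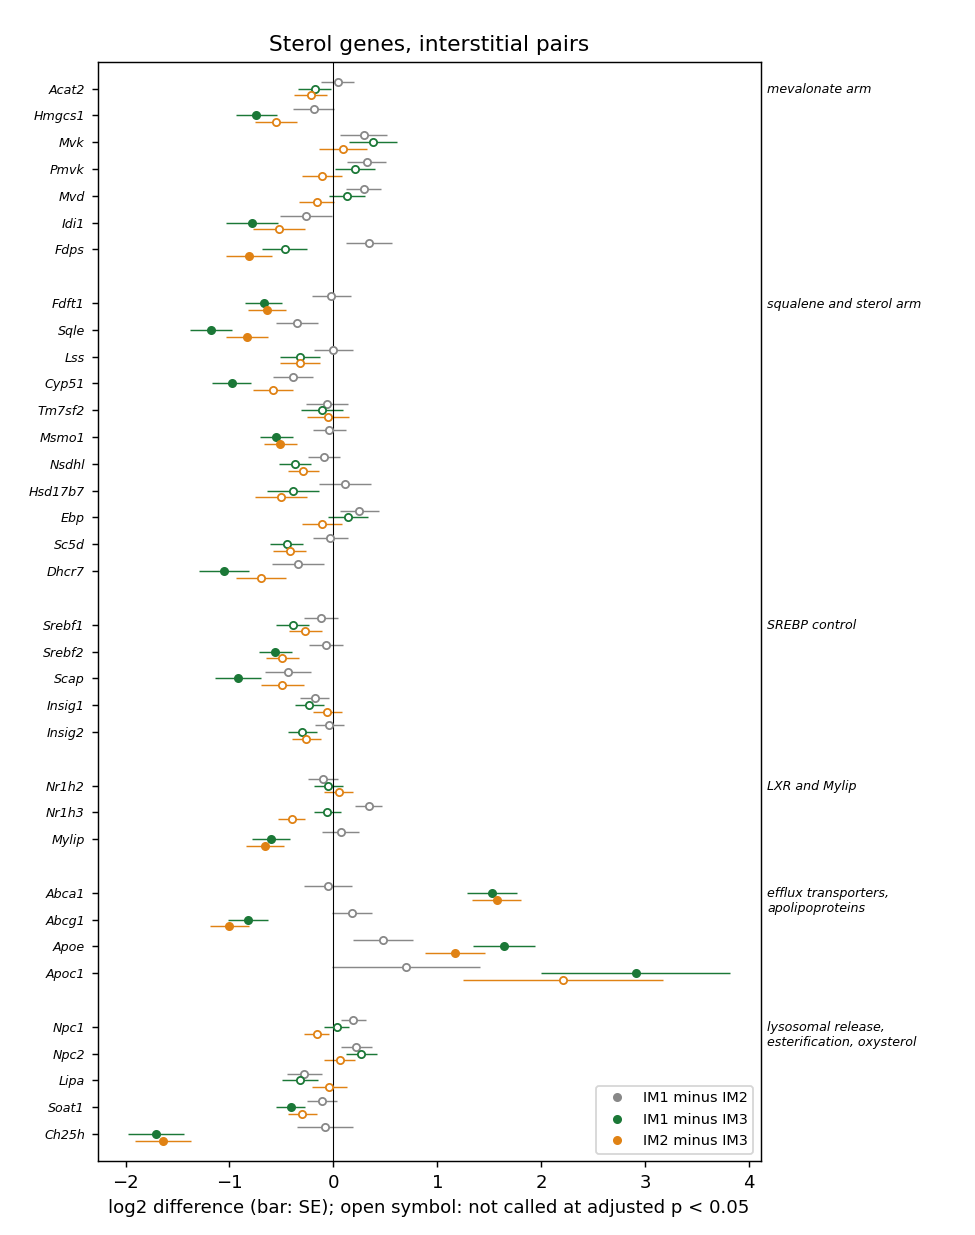
Log2 difference for each pair of interstitial populations (horizontal axis, with the SE as a bar) for the 35 genes ordered by role (vertical axis); filled symbols passed an adjusted p under 0.05. Every synthesis enzyme that passed lies left of 0, higher in IM3, while Abca1 and Apoe lie right of it, and no symbol for IM1 minus IM2 is filled.

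The other genes of the pathway were taken as lists chosen with the members, of which 51 of 56 were tested, and 15 were higher and 23 lower in interstitial macrophages than in AM. These counts, and those of the lists below, stand beside 35.9% higher and 28.7% lower of all tested genes, and no list was tested as a whole. Among the fatty acid synthesis genes that SREBP drives, 7 of 11 were lower and 1 was higher. Scd1, a fatty acid desaturase, was the lowest of them (-2.71 ± 0.23) and Fads1, another desaturase, was the one that was higher (2.89 ± 0.15). Acat1, which joins acetyl-CoA units, was lower by -0.39 ± 0.10 in the interstitial mean. Its mean level was 141.6 CPM in AM, 149.8 in IM1, 118.3 in IM2 and 70.88 in IM3. IM1 was thus not below AM. IM3 was below IM1, opposite to the listed synthesis enzymes that passed the edgeR test between these populations. Of the SREBP processing genes 2 of 6 were higher, about the share of all genes, with Erlin1 at 0.80 ± 0.13 and Rnf139 at 0.27 ± 0.11. Rnf139 was close to the threshold (adjusted p = 0.049, edgeR). Its levels overlapped, at 58.11 to 66.32 CPM in AM and 61.43 to 86.72 in interstitial libraries.

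Of the LXR partners and further targets 4 were higher and 5 lower of 11 tested, and the called genes did not share a direction. Arl4c was the highest (4.04 ± 0.20) and Lpl, lipoprotein lipase, the lowest (-3.06 ± 0.11). Among 7 uptake receptors 3 were higher and 4 lower: Vldlr, the very low density lipoprotein receptor, had 0 reads in AM and 1613 in interstitial libraries, at least 175.7-fold higher against 3 reads over the AM group, while Olr1, a receptor for oxidised lipoprotein, was lower by -7.02 ± 0.13. In sterol transfer and ester turnover 3 of 10 were higher and 4 lower, with Soat2 at 182 reads against 1 (ratio 59.47, 95% interval 10.54 to 2362) and Nceh1, which cleaves cholesterol esters in the cytosol, at -2.65 ± 0.09. Of 3 oxysterol enzymes tested, Cyp27a1, which makes 27-hydroxycholesterol, was at 11.78 ± 1.089 CPM in AM and 343.4 ± 31.01 in IM1, 380.6 ± 29.79 in IM2 and 347.5 ± 40.57 in IM3 (4.92 ± 0.14, adjusted p = 1.2e-13, edgeR). Cyp46a1 had 0 reads in AM and 187 in interstitial libraries (at least 20.37-fold higher), and Hsd3b7 was lower by -2.56 ± 0.08.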

How the data were processed

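Per the labels, RNA from about 50000 sorted cells (integrity numbers 9.2 to 10.0) entered SMART-Seq v4 amplification at 2 ng, and the pooled libraries were run on Ion Proton. The 38 deposited samples are sequencing runs of 12 libraries, 3 to 5 runs each, and runs were summed to 1 value per library. The deposited values are raw counts per gene and run. Counting used featureCounts 1.5.0-p1 without strand, per the file headers, on Ensembl 78 gene models, whose coordinates and exon lengths are other columns of the deposited table, and the submitters' processing notes name STAR 2.5.1b, the mm10 build and DESeq2 1.8.1. A deposited table of counts per library held the same values, with 0 cells differing. Symbols came from GENCODE M21 (42462 of 43346 identifiers, 98.0%). Unstranded counting cannot separate genes that overlap on opposite strands.

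All 12 libraries entered 1 edgeR 4.0.16 fit (R 4.3.3) with population as the term, TMM scaling, filterByExpr with a minimum count of 10, robust quasi-likelihood dispersion and F tests, adjusted by Benjamini-Hochberg over 14095 genes and called at 0.05. Differences are log2 with SE, and levels are TMM-scaled CPM with SD. The SE was back-calculated as the absolute log2 difference over the square root of the F statistic, also for the bars in the figures, so it is approximate. The fit assumes 1 spread for all populations, while chi-square per degree of freedom between replicates was widest for IM1 (20.53 to 86.17), then IM2 (15.40 to 24.89), IM3 (12.84 to 16.43) and AM (8.99 to 12.95). Counts at or under 3 reads are near the detection limit, and binomial intervals (95%) cover counting error only, since reads were amplified without molecular identifiers. Alternatives were RLE and upper quartile scaling, no filter, DESeq2 1.42.0, voom with quality weights in limma 3.58.1, a replicate block, only the populations compared, and leaving out each library. Scripts were tested on data simulated with the same spread in every population, unlike these libraries, and the mark for passing was changed after the first run. No per-sample column was left unused, and the deposited assignment summary gave the read totals.

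The genes and lists were chosen with earlier results of these data known. Values in every library are given for Srebf1, Srebf2, Nr1h2 and Nr1h3, for the genes of each role with the 2 largest called differences from AM or within an interstitial pair, and for genes called nowhere. Abca1 was given in full, and Insig1, Insig2, Npc1 and Npc2 were described, after their values were seen. RefSeq windows were searched for 4 motifs. The values of 1 gene of the other pathway lists are not reported here.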

Additional observations from a re-analysis of the deposited data

Results flagged for a closer look

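For 3 genes a difference from AM was called in some interstitial populations and not in others, and the populations also differed by direct test. Of the 35 genes, 17 differed in at least 1 interstitial pair, and for the other 14 the calls against AM did not split in this way in the pair that differed. Of all tested genes, 1.71% were called between IM1 and IM2, 24.4% between IM1 and IM3 and 11.4% between IM2 and IM3. The share of all genes called in at least 1 pair, or with such split calls, was not counted. Whether 17 or 3 is unusual therefore cannot be told. Ch25h was called lower than AM in IM1 and IM2 and not in IM3, and IM1 minus IM3 was -1.71 and IM2 minus IM3 was -1.64 on the log2 scale (adjusted p = 0.000231 and 0.000592, edgeR). Mylip was called higher than AM in IM3 and not in IM1 or IM2, with -0.60 for IM1 minus IM3 and -0.66 for IM2 minus IM3 (adjusted p = 0.0253 and 0.0246, edgeR). Apoc1 was called lower than AM in IM3 and not in IM1, with 2.91 for IM1 minus IM3 (adjusted p = 0.0297, edgeR), from 23 and 3 reads.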

How the results depend on the processing

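No gene reversed its direction in a called comparison under the alternatives run, and the count of 17 lower synthesis enzymes in the interstitial mean moved only through Ebp, which passed in 6 alternatives. Counts of called genes against AM stayed within 1.5 times, with 29 to 33 for the interstitial mean (31 in the reported fit), 29 to 32 for IM1, 29 to 31 for IM2 and 28 to 31 for IM3 when libraries were left out. The pairs moved more. Between IM1 and IM2 the count was 1 (Apoe) with no filter on low counts in place of 0, and 0 to 1 when single libraries were left out. Between IM1 and IM3 it was 10 when only these populations were fitted in place of 16, and 8 to 17 when libraries were left out. Between IM2 and IM3 it was 14 with no filter in place of 9, and 3 to 15 when libraries were left out. Calls over all tested genes also moved when libraries were left out. They were 2441 to 4672 between IM1 and IM3 in place of 3445, and 1143 to 2247 between IM2 and IM3 in place of 1611. The cause was not tested. Replicate letters were shared between populations but not every pair of same-letter libraries deviated together, so they were not treated as pairs: correlations of same-letter deviations were -0.16 to 0.35 over 18 pairs, 7 above 0.1, and 9 of 12 libraries correlated best with their own letter. With the replicate block the counts were 32 (interstitial mean), 30 (IM1), 30 (IM2), 31 (IM3), 0, 17 and 12 (the pairs IM1 and IM2, IM1 and IM3, IM2 and IM3). The block gave Ebp a call in the interstitial mean (adjusted p = 0.0118), in IM2 (0.00883) and in IM3 (0.0428), Sc5d one between IM1 and IM3 (0.033), and Hmgcs1 (0.0216), Cyp51 (0.00609) and Dhcr7 (0.00374) one between IM2 and IM3. Upper quartile scaling moved the median of all genes for IM1 against AM from 0.12 to 0.18. The other motifs searched, in place of the response element core at 6.7%, gave shares of 93.3% (NF-Y box), 93.3% (GC box) and 20% (E-box) of the synthesis genes. Counted per window in place of per gene, the motif shares of the synthesis enzymes were 5.6% (response element core), 77.8% (NF-Y box), 83.3% (GC box) and 16.7% (E-box). Leaving out replicate A of every population was chosen after seeing the data. Apoc1 is limited by its depth of 1 to 13 reads per library.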
